A study of Mus musculus with 5 samples.

Results

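The 38 genes described here encode proteins that mark the neuronal differentiation of a brain tumour cell: RNA-binding proteins and cytoskeletal proteins of young neurons, markers of the cerebellar granule neuron, proteins of the synaptic vesicle and its release, and adhesion molecules that join synapses. They were listed by gene symbol, with every probe of each gene on the array. The rule uses no measured value, but the list was drawn up with earlier results of these data known. Probes for the 38 genes numbered 97. Of these probes, 70 passed the detection filter (a detection p-value below 0.05 on at least 2 of the 5 arrays), and 33 genes had such a probe and were tested, among 10474 genes tested in all. Each tested gene is represented by its brightest probe, which was detected on all 5 arrays for every one of the 33. The other 5 genes did not pass. Cbln3, Tubb3, Snap25 and Nlgn1 were detected on 0 of 5 arrays by any probe, and Fat2 on 1, MyoD+/+ tumour 3.

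RNA was measured in 5 mouse medulloblastomas taken at end stage, each on 1 Illumina bead array. All 5 tumours carried SmoA2, an activated form of the hedgehog pathway transducer Smoothened, and differed in MyoD: 3 tumours were MyoD+/+;SmoA2 and 2 were MyoD+/-;SmoA2, lacking 1 copy of the gene for the myogenic transcription factor MyoD. The study asked whether the muscle differentiation programme takes part in the greater tumorigenicity that follows loss of MyoD, and the neuronal genes here were set on the same contrast. The labels give neither age nor sex, nor the promoter behind SmoA2. Nor do they say that every tumour had its own mouse, and a p-value here covers the spread of these samples, which may be technical in part.

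Medulloblastomas driven by hedgehog signalling arise from precursors of cerebellar granule neurons, which divide in the external germinal layer, then leave the cell cycle, migrate inward and extend axons that form parallel fibres. As they mature they switch on tubulin and doublecortin, then RNA-binding proteins such as NeuN, and then the machinery that loads, docks and fuses synaptic vesicles. A tumour can hold both dividing precursor-like cells and cells that have begun this sequence, beside neurons and glia of the surrounding cerebellum.

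Levels below are log2 normalised signals after background correction. Differences are MyoD+/- minus MyoD+/+ on the same log2 scale with their standard error, from limma fitted over all genes, with Benjamini-Hochberg adjustment. In bulk tissue, fewer cells of a type and less RNA per cell cannot be told apart. Between 16767 and 18055 of 45281 probes were detected per array, and the median raw signal of MyoD+/+ tumour 2 was 133.6, where the remaining arrays had 145.2 to 148.1. Myod1 itself was measured at 7.25, 6.38 and 7.08 in MyoD+/+ tumours 1 to 3 and at 6.31 and 6.67 in MyoD+/- tumours 1 and 2 (difference -0.41 ± 0.28, limma adjusted p = 0.957). The groups overlap, so the targeted gene does not check the labels.

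No tested member reached an adjusted p of 0.05 in limma, the lowest being 0.911. Over all 10474 genes, 0 passed (0%), with a smallest adjusted p of 0.398. At an unadjusted p below 0.05 were 3 members, Sncg, Stx1a and Thy1, against 5.26% of all genes. The members split evenly, with 17 higher and 16 lower in MyoD+/- tumours and a median difference of 0.02, against -0.00 over all genes tested. In 7 members (21.2%) the groups did not overlap, against 20.9% of all genes, a share near the background. Of the 33 intervals at 95%, 24 (72.7%) lay wholly within a 2-fold difference in either direction, against 87.7% of all genes. For the remaining 9 a difference of 2-fold is within the interval.

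**Figure D1:**
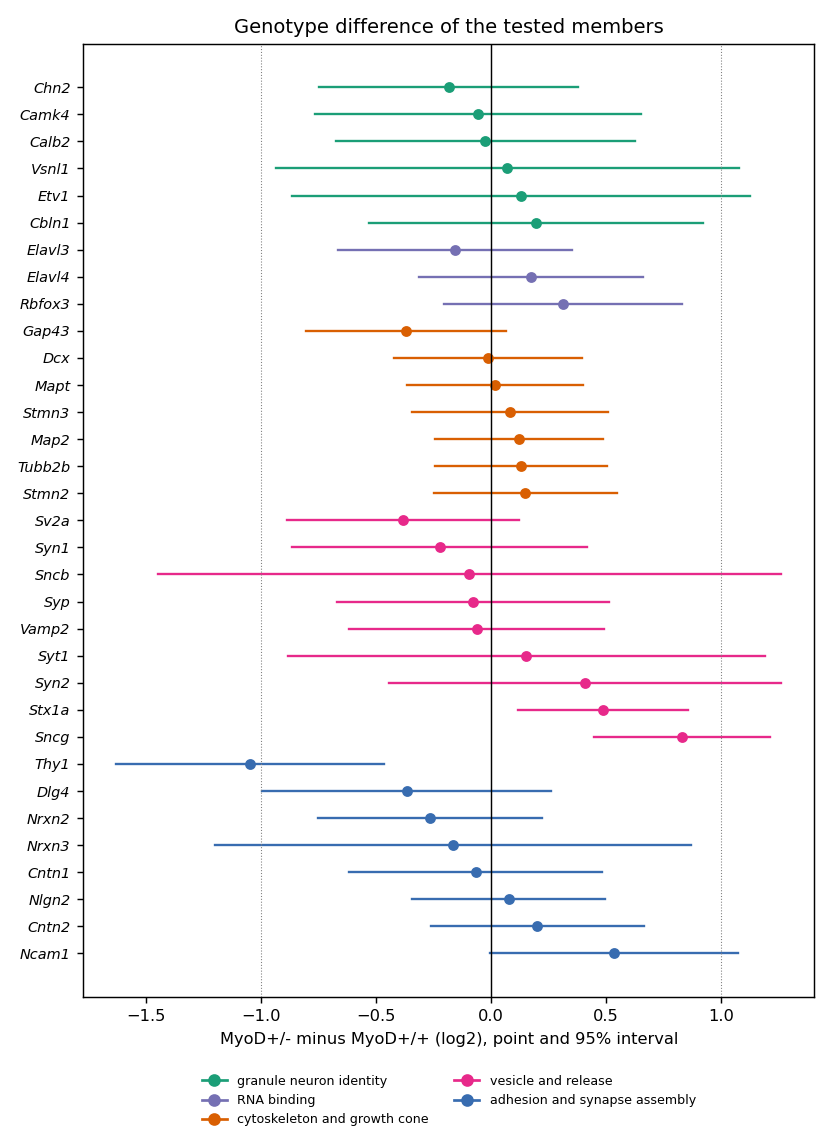
Difference in level between MyoD+/- and MyoD+/+ tumours (log2, x axis) for the 33 tested members grouped by role, with the fitted difference as a point and its 95% interval as a line. Dotted lines mark a 2-fold difference in each direction; the intervals of Sncg, Stx1a and Thy1 leave 0 to one side, and the rest include it.

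The proteins of the synaptic vesicle and its release machinery held the 2 members with the smallest unadjusted p among those higher in MyoD+/- tumours. Sncg encodes gamma-synuclein, a small protein of neuronal terminals related to alpha-synuclein. Its level was 6.56, 6.44 and 6.36 in MyoD+/+ tumours 1, 2 and 3, and 7.25 and 7.31 in MyoD+/- tumours 1 and 2. Both MyoD+/- tumours were above all 3 MyoD+/+ tumours, and the difference was 0.83 ± 0.16, a fold of 1.78 (limma unadjusted p = 0.0013, adjusted p = 0.911). Without background correction the difference was 0.41, and with the deposited processed values it was also 0.41. Leaving out each tumour in turn gave 0.78 to 0.88.

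Stx1a encodes syntaxin 1A, the plasma-membrane SNARE protein that pairs with synaptobrevin and SNAP-25 to fuse vesicles. Its level was 8.70, 8.65 and 8.67 in MyoD+/+ tumours 1 to 3 and 9.21 and 9.11 in MyoD+/- tumours 1 and 2. The groups did not overlap and the 3 MyoD+/+ tumours lay close together, with a difference of 0.49 ± 0.16, a fold of 1.4 (limma unadjusted p = 0.0169, adjusted p = 0.911). Its partner Vamp2, encoding synaptobrevin 2, was at 11.26, 10.93, 11.37, 10.83 and 11.42 in the same order of tumours (difference -0.06 ± 0.24), and the groups overlapped.

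The remaining vesicle genes overlapped between genotypes, and each was lowest in MyoD+/+ tumour 2 or MyoD+/- tumour 1. Syt1 encodes synaptotagmin 1, the calcium sensor of fast release. Its level was 12.32, 11.09 and 12.64 in MyoD+/+ tumours 1 to 3 and 11.90 and 12.44 in MyoD+/- tumours 1 and 2 (difference 0.15 ± 0.44). Its SD over the 5 tumours was 0.61, and 3 probes gave differences of 0.15, 0.65 and 0.14. Sncb, encoding beta-synuclein, varied most of all members, with an SD of 0.82. It was at 10.10, 8.79 and 10.47 in MyoD+/+ tumours and at 8.95 and 10.44 in MyoD+/- tumours. The low values belong to MyoD+/+ tumour 2 and MyoD+/- tumour 1, 1 in each genotype, and the genotype difference was -0.09 ± 0.58. Syn2, encoding synapsin II, which tethers vesicles in reserve, was at 10.12, 9.07, 10.31, 10.09 and 10.39 (difference 0.41 ± 0.36; SD 0.53). Only MyoD+/+ tumour 2 stood low among these 5 values, and without it the difference was 0.03. A second Syn2 probe differed by -0.02. Syn1, encoding synapsin I, differed by -0.22 ± 0.27, while its other probe differed by 0.08. Syp, the vesicle membrane protein synaptophysin, was at 12.15, 11.54, 12.21, 11.71 and 12.07 (difference -0.08 ± 0.25). Its low values were again in MyoD+/+ tumour 2 and MyoD+/- tumour 1. Sv2a, a vesicle glycoprotein, was at 11.61, 11.12, 11.51, 10.86 and 11.20 (difference -0.38 ± 0.21), and its 2 probes gave -0.38 and -0.40. Without MyoD+/- tumour 1 the Sv2a difference was -0.21. In this group 4 members were higher in MyoD+/- tumours and 5 lower, with a median difference of -0.06.

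Promoter windows are shown for Sncg and Stx1a, the members with the smallest unadjusted p that were higher in MyoD+/-, and for Syt1, whose groups overlapped, because MyoD binds E-boxes of the form CANNTG and each window holds 1 of the 2 forms searched. They run from 250 bases before to 50 after a RefSeq transcription start in GRCm38.p6 and are written 5′ to 3′ on the gene's strand, with the match in capitals. Sncg lies at chr14:34374620-34374919 on the minus strand, with CATCTG, the reverse complement of CAGATG, starting 9 bases before the start site. Stx1a lies at chr5:135023232-135023531 on the plus strand, with CAGCTG 33 bases before it. Syt1 lies at chr10:109009062-109009361 on the minus strand, with CAGCTG 31 bases before it, and its other RefSeq window held neither form.
Sncg: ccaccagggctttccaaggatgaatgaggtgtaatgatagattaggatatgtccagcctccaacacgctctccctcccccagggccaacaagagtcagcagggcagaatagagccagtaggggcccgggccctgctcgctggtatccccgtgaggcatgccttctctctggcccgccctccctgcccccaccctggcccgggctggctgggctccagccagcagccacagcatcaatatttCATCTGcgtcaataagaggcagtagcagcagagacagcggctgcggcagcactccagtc
Stx1a: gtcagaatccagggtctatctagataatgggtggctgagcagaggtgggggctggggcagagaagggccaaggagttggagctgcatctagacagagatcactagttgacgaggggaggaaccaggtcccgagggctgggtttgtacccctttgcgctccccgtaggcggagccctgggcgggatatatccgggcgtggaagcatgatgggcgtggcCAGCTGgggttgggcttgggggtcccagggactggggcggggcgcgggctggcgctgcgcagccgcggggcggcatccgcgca
Syt1: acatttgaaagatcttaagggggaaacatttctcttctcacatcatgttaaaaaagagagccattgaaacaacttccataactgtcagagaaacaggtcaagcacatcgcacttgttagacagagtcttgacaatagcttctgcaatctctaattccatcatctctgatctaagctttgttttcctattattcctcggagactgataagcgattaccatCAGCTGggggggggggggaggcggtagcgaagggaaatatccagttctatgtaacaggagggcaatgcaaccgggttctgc
CAGCTG, which is its own reverse complement, was found in 9 of 44 member windows (20.5%) and in 16.3% of all 32851 windows. CAGATG or CATCTG was found in 10 of 44 (22.7%) and in 17.2% of all windows. The 44 windows belong to 26 of the 38 genes, and Thy1 was not among them, so its promoter was not searched. Each form was found in 7 genes: CAGCTG in Chn2, Elavl3, Elavl4, Nlgn2, Stx1a, Sv2a and Syt1, and CAGATG in Chn2, Elavl4, Etv1, Sncg, Stmn3, Syn2 and Vsnl1. A match says only that these letters are present in the window. Other forms of CANNTG, such as CATTTG and CACTTG in the Syt1 window, were not searched and stay in lower case.

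Adhesion molecules and synapse-assembly genes held the largest difference in the downward direction. Thy1 encodes a GPI-anchored surface glycoprotein of projection neurons that T cells also carry. Its level was 10.43, 10.24 and 9.79 in MyoD+/+ tumours 1 to 3 and 8.87 and 9.34 in MyoD+/- tumours 1 and 2. All 3 MyoD+/+ tumours were above both MyoD+/- tumours, and the difference was -1.05 ± 0.25, a fold of 0.484 (limma unadjusted p = 0.00367, adjusted p = 0.911). Leaving out each tumour in turn gave -1.28 to -0.81. Among markers of other cell types, all 8 tested oligodendrocyte markers were lower in MyoD+/- tumours (median difference -0.78). Their summed linear level was 5719 to 7665 in MyoD+/+ and 3130 and 3531 in MyoD+/-. All 6 tested Purkinje cell and interneuron markers were lower too (median -0.43), summing to 5345 to 10646 in MyoD+/+ and to 5601 and 6729 in MyoD+/-. The sum of 5345 was in MyoD+/+ tumour 3, below both MyoD+/- tumours, and Thy1 in that tumour was above both. Pvalb, the brightest of these markers, was at 11.83 in MyoD+/+ tumour 3 and weighs most in the sum. Gad2 was at 7.73, 7.64 and 7.12 in MyoD+/+ tumours 1 to 3 and at 6.53 and 6.65 in MyoD+/- tumours 1 and 2. Gad1, Kit, Pcp2, Pvalb and Slc32a1 were lowest in MyoD+/+ tumour 3. Of the astrocyte and Bergmann glia markers, 7 were lower and 2 higher (median -0.09). Of the microglia and macrophage markers, 3 were lower and 5 higher (median 0.16). Of the T cell markers, Cd3e, Cd3d, Cd3g, Cd4 and Cd8a were detected on 0 arrays and Cd8b1 differed by -0.21 ± 0.16. The part of oligodendrocytes and other neurons in the Thy1 difference was not tested.

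Ncam1 encodes the neural cell adhesion molecule. Its level was 8.99, 8.43 and 8.86 in MyoD+/+ tumours 1 to 3 and 9.10 and 9.49 in MyoD+/- tumours (difference 0.53 ± 0.23, limma unadjusted p = 0.0521, adjusted p = 0.945). The groups did not overlap for this probe, but its 4 probes gave 0.53, -0.13, -0.41 and 0.09, and the mean of the probes differed by 0.02. Nrxn3 encodes a presynaptic neurexin. It was at 8.42, 7.23, 8.67, 7.57 and 8.32 (difference -0.16 ± 0.44; SD 0.61), lowest in MyoD+/+ tumour 2 and next lowest in MyoD+/- tumour 1. Its other probes differed by -0.51 and 0.29. Nrxn2, a second neurexin, was at 11.01, 10.76, 11.29, 10.66 and 10.85 (difference -0.27 ± 0.21), with other probes at -0.47, -0.13 and 0.23, so the probes disagree. Dlg4 encodes PSD-95, the scaffold of the postsynaptic density. Its levels were 7.48, 6.77, 7.02, 6.45 and 6.999 (difference -0.37 ± 0.27), with the groups overlapping. Without MyoD+/- tumour 1 the difference was -0.09, and without MyoD+/- tumour 2 it was -0.64. The other 3 were Cntn1 (-0.07 ± 0.23) and Cntn2 (0.20 ± 0.20), which encode contactins, and Nlgn2 (0.08 ± 0.18), which encodes the neuroligin of inhibitory synapses. The group counted 3 higher and 5 lower.

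**Figure D2:**
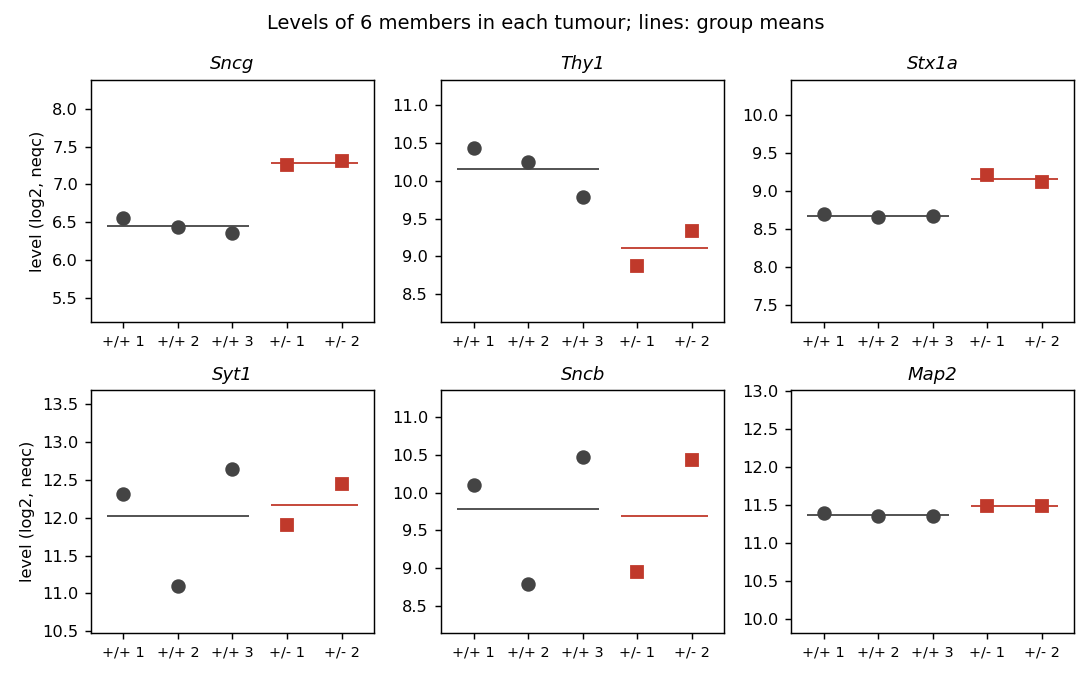
Levels (log2 normalised signal, y axis) of 6 members in each of the 5 tumours (x axis), with lines at the group means. Sncg and Stx1a are higher in both MyoD+/- tumours than in all 3 MyoD+/+ tumours, and Thy1 is lower in both, while the genotypes overlap for Syt1 and Sncb.

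By their brightest probes, cytoskeletal and growth cone genes other than Gap43 had SDs of 0.07 to 0.15 across the 5 tumours. Tubb2b, a beta-tubulin of migrating and newly born neurons, was at 14.51, 14.58 and 14.65 in MyoD+/+ tumours and at 14.74 and 14.68 in MyoD+/- tumours. The groups did not overlap, but the difference was 0.13 ± 0.16, and 5 probes gave values from 0.13 to 0.46. Of these, only the probe at 0.14 overlapped between genotypes. The probe at 0.46 ± 0.17 had a limma unadjusted p of 0.0286 and an adjusted p of 0.947. Stmn2, a microtubule-destabilising phosphoprotein of growth cones, was at 12.09, 11.96, 12.15, 12.11 and 12.31 (difference 0.15 ± 0.17). Its second, dimmer probe differed by 0.67 ± 0.20, with a limma unadjusted p of 0.0095 and an adjusted p of 0.947. Map2, encoding a dendritic microtubule-binding protein, was at 11.39, 11.35, 11.35, 11.48 and 11.48 (0.12 ± 0.16). The groups did not overlap for this probe, and its other probes gave 0.33, -0.20, -0.08 and 0.57, the last detected on 3 of 5 arrays. Mapt, which encodes the axonal protein tau, differed by 0.02 ± 0.16, with probes at -0.30, 0.05, 0.13 and 0.14 besides. The dimmer Mapt probes spread more: the one at 0.05, detected on all 5 arrays, was at 7.62, 6.49, 7.99, 7.06 and 7.77 (SD 0.61), and was lowest in MyoD+/+ tumour 2. Dcx, encoding doublecortin of migrating neuroblasts, differed by -0.01 ± 0.17, and its second probe by 0.36 ± 0.19. Gap43, a membrane protein of growing axons, was at 10.70, 10.66, 10.51, 10.07 and 10.44 (difference -0.37 ± 0.19), and the MyoD+/- tumours were below the others. Without MyoD+/- tumour 1 the difference was -0.18, and without MyoD+/- tumour 2 it was -0.56. Stmn3, a relative of Stmn2, differed by 0.08 ± 0.18. The group counted 5 higher and 2 lower, with a median difference of 0.08.

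The 3 genes encoding RNA-binding proteins of postmitotic neurons were Rbfox3, Elavl3 and Elavl4. By their brightest probes they differed by 0.31, -0.16 and 0.17, with the groups overlapping. Rbfox3 encodes NeuN, a splicing factor used to mark mature neurons. It was at 12.83, 12.20 and 12.64 in MyoD+/+ tumours and at 12.83 and 12.92 in MyoD+/- tumours (difference 0.31 ± 0.22). Its second probe differed by 0.40 ± 0.24, with no overlap between the groups. Without MyoD+/+ tumour 2 the Rbfox3 difference was 0.14. Elavl3, encoding an RNA-stabilising Hu protein, differed by -0.16 ± 0.22 (second probe 0.06), and Elavl4, its relative, by 0.17 ± 0.21 (second probe 0.47).

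Granule neuron identity genes split 3 and 3 in direction, and for each of the 6 the SD over the tumours was larger than the size of the genotype difference. Cbln1, a secreted cerebellin that bridges parallel fibres to Purkinje cells, was at 13.20, 12.68, 13.48, 12.93 and 13.70 (difference 0.20 ± 0.31). Etv1, a transcription factor of maturing granule neurons, was at 8.68, 7.71, 9.14, 8.26 and 9.02 (0.13 ± 0.42; SD 0.59). Vsnl1, a calcium sensor of the visinin-like family, was at 11.42, 10.29, 11.07, 10.40 and 11.59 (0.07 ± 0.43; SD 0.59). All 3 had their lowest value in MyoD+/+ tumour 2. Camk4, encoding a calcium-dependent kinase rich in granule neurons, differed by -0.06 ± 0.30. Chn2, encoding a Rac-regulating chimaerin, differed by -0.18 ± 0.24. Calb2, encoding the calcium buffer calretinin, differed by -0.03 ± 0.28, and its second probe by 0.0037.

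The spread between the tumours is described here by the brightest probe of each gene, with no test between roles. The median SD over the 5 tumours was 0.29 for the members and 0.23 over all genes tested. Without background correction these were 0.25 and 0.13. By role the median SD was 0.39 for granule identity, 0.35 for vesicle genes, 0.32 for adhesion, 0.24 for RNA-binding genes and 0.12 for the cytoskeleton. The companion genes were other neuronal genes, listed by the same roles plus a postsynaptic group. Their median SD was 0.31 for granule neuron genes, 0.30 for vesicle genes and 0.25 for 6 postsynaptic genes. It was 0.24 for adhesion, 0.23 for RNA-binding genes and 0.19 for the 19 cytoskeletal genes. Second probes of cytoskeletal members also had larger SDs, with 0.40 for a Stmn2 probe and 0.28 for a Map2 probe. The other Tubb2b probes past the filter had SDs of 0.17 to 0.26, and the second Dcx probe had 0.23. The small SDs of the cytoskeletal members thus depend on the probe. In SD, 8 members lay above the 90th percentile of all genes. Another 7 lay below the 25th, and 6 of those 7 were cytoskeletal.

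**Figure D3:**
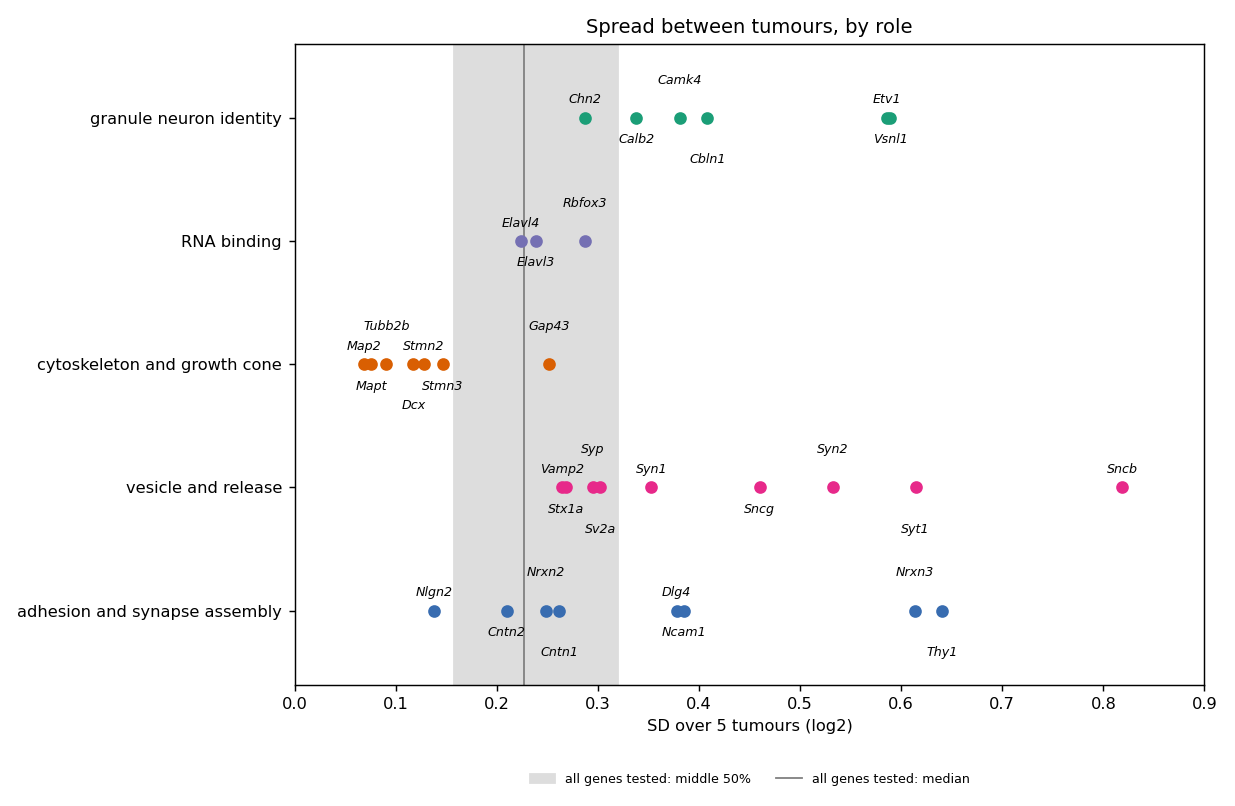
SD of the level over the 5 tumours (log2, x axis) for each tested member by role, from its brightest probe, over the middle 50% of all genes tested (grey band) and their median (line). The cytoskeletal genes other than Gap43 lie to the left of the band, and Sncb lies farthest right at 0.82.

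MyoD+/+ tumour 2 was the lowest of the 5 tumours in 16 of 33 members (48.5%), against 23.1% of all genes, and MyoD+/- tumour 1 in 9 (27.3%, against 18.96%). No member was lowest in MyoD+/- tumour 2, against 19.6% of all genes. The highest value fell in MyoD+/+ tumour 3 for 10 members (30.3%, against 19.9%) and in MyoD+/- tumour 2 for 10 (30.3%, against 15.99%). The level in MyoD+/+ tumour 2 minus the mean of the other 4 had a median of -0.27 over the members, with -0.63 for granule identity genes, -0.43 for vesicle genes and 0.09 for the cytoskeleton, and 0.03 over all genes. MyoD+/+ tumour 2 also had the lowest median raw signal and the fewest detected probes (16767), and the part of those in these values was not tested.

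**Figure D4:**
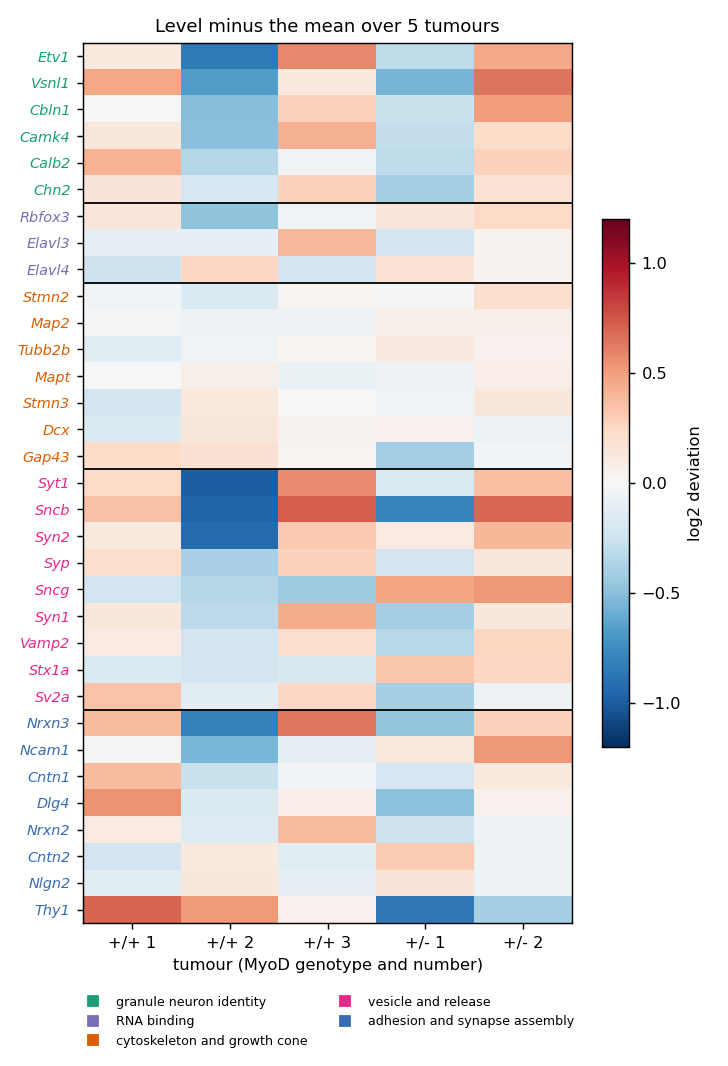
Level of each tested member in each tumour minus its mean over the 5 tumours (log2, colour, brightest probe; columns are tumours, members are grouped by role). MyoD+/+ tumour 2 is low for most granule identity and vesicle genes, and the cytoskeletal genes other than Gap43 are near 0 throughout.

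The sample titles carry letters that the labels do not explain: V for MyoD+/+ tumour 2 and MyoD+/- tumour 1, P for MyoD+/+ tumour 3 and MyoD+/- tumour 2, and AI for MyoD+/+ tumour 1. The lowest value fell in a V tumour for 25 of 33 members (75.8%), against 42.0% of all genes. The P tumour was above the V tumour in both genotypes for 21 members (63.6%), against 26.6% of all genes, and below it in both for 4 (12.1%), against 33.5% of all genes. By role, P was above V in both genotypes for 6 of 6 granule identity genes, 7 of 9 vesicle genes, 5 of 8 adhesion genes, 2 of 3 RNA-binding genes and 1 of 7 cytoskeletal genes. The companions gave another order, with 12 of 19 cytoskeletal genes (63.2%), 15 of 22 vesicle genes (68.2%) and 4 of 10 granule neuron genes (40%). The same held for 3 of 6 postsynaptic genes (50%), 2 of 6 RNA-binding genes and 2 of 8 adhesion genes (25%). The median of P minus V was 0.39 in MyoD+/+ and 0.34 in MyoD+/- tumours. With 1 tumour per letter and genotype these are counts with no test, and the letters, the tumours and anything that differs with them cannot be told apart. Within the V letter the median difference of MyoD+/- from MyoD+/+ was 0.11, and within P it was 0.04. The summed linear level of the 5 markers of mature granule neurons was 2216 and 3469 in the V tumours, 5835 and 4582 in the P tumours, and 4269 in MyoD+/+ tumour 1. Of these markers, Kcnc1 was highest in MyoD+/- tumour 1, a V tumour, and lowest in MyoD+/- tumour 2.

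**Figure D5:**
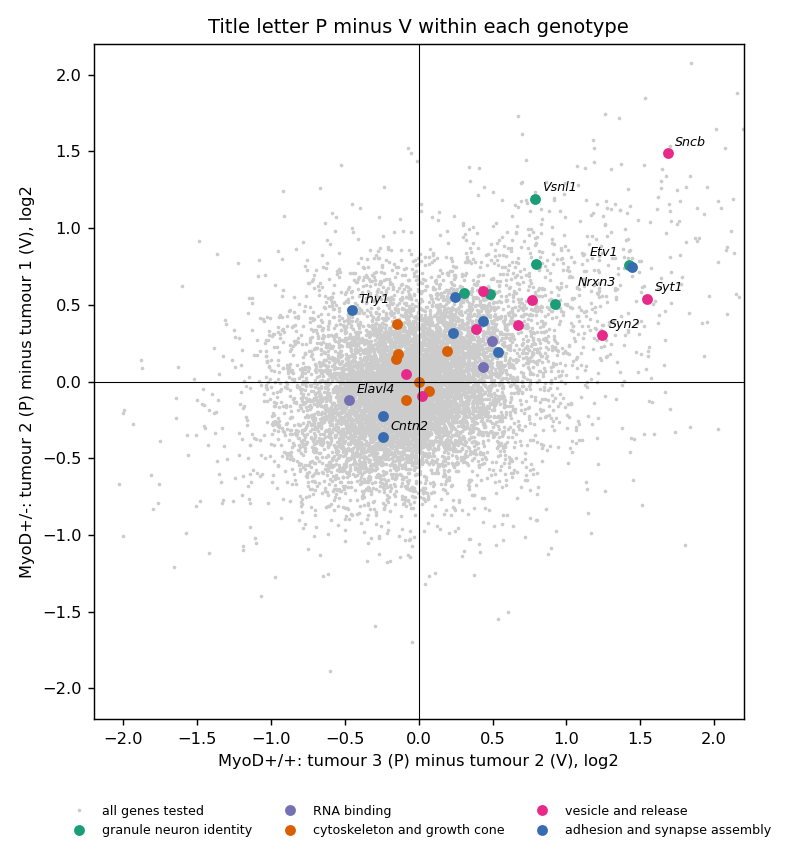
P tumour minus V tumour in MyoD+/+ (log2, x axis) against the same in MyoD+/- (log2, y axis), for all genes tested (grey) and the members (colour, by role). Most granule identity and vesicle genes lie at the upper right, up to Sncb at 1.69 and 1.49, while the cytoskeletal genes lie nearer the centre; 60 genes fall outside the plotted range.

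Each probe was also tested on its own. Of the 70 member probes, 0 passed the adjusted threshold in limma (0% of the 18675 probes tested passed), and 8 had an unadjusted p below 0.05, 5 higher and 3 lower, against 5.2% of all probes. The smallest adjusted p was 0.947. In 10 of the 20 members with more than 1 probe past the filter, probes differed in sign: Calb2, Elavl3, Dcx, Map2, Mapt, Syn1, Syn2, Nrxn2, Nrxn3 and Ncam1, with the differences given above.

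Other genes of the same neuronal programme gave similar counts. Of 97 listed companions, 71 were tested: 39 were higher and 32 lower in MyoD+/- tumours, with a median of 0.01, and 0 passed in limma. At an unadjusted p below 0.05 were 5, 1 higher and 4 lower, against 5.26% of all genes. In 16 (22.5%) the groups did not overlap, against 20.9% of all genes, a share near the background. The smallest unadjusted p on the higher side belonged to Stmn4, a further stathmin, at 9.39, 9.30, 9.45, 9.82 and 10.22 (difference 0.64 ± 0.19), ahead of Syt11, a synaptotagmin, and Celf5, an RNA-binding protein. Syt11 was at 8.01, 7.81, 8.31, 8.33 and 8.57 (0.41 ± 0.20). Celf5 was at 6.0003, 6.30, 5.91, 6.45 and 6.42 (0.36 ± 0.18). In all 3 both MyoD+/- tumours were above the MyoD+/+ tumours. On the lower side Nrgn, encoding the calmodulin-binding protein neurogranin, was at 5.49, 5.55, 5.30, 5.01 and 4.90 (-0.49 ± 0.17). Nrgn was detected on 3 of 5 arrays at most, and its mean level was at percentile 5.7 of all genes tested, so its values are near the floor. Cbln4, another cerebellin, was at 9.36, 9.35, 8.91, 8.77 and 8.48 (-0.58 ± 0.21). Kif5a, a kinesin motor, was at 10.28, 10.34, 10.36, 9.86 and 9.94 (-0.43 ± 0.16). In these 3 both MyoD+/- tumours were below the MyoD+/+ tumours. In 42 companions (59.2%) the lowest value fell in a V tumour, against 42.0% of all genes. In 38 companions (53.5%) P was above V in both genotypes, against 26.6% of all genes.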

How the data were processed

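Total RNA from 5 tumours was measured on Illumina mouse bead arrays; per the labels' protocols it was purified with Trizol and RNeasy columns and labelled with biotin as cRNA. The authors deposited a signal intensity for each of 45281 probes, not normalized per the file headers, with a detection p-value beside each signal. A deposited table of processed values holds log2 values, judged by comparison with the signals: both rank the probes alike (rank correlation 1), and its column medians are 7.16732 and, for MyoD+/+ tumour 2, 7.16712. Scanner and software: not given in the sources used here.

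Signals were corrected with neqc (control-probe moments estimated through the detection p-values, offset 16, quantile normalization) and log2 transformed in R 4.3.3 with limma 3.58.1. Probes passed with a detection p below 0.05 on at least 2 arrays (18675 probes, 15899 with 1 gene symbol), and the brightest probe stood for a gene (10474 genes). Of the probes, 34885 had 1 symbol, 18 several and 10378 none here. Names came from the platform annotation, 34807 of them matched to RefSeq. The fit used genotype alone over the 5 tumours with eBayes, two-sided. In simulated data its mean estimates were close to the changes planted. Those changes were all larger than any member's difference here, and smaller ones were not tried.

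Members named with every tumour's value were the 10 of smallest unadjusted p, the 6 of highest mean level and the 6 of largest SD, and the 3 companions of smallest p in each direction. The members, lists and tests were chosen with earlier results of these data known. Alternatives were no background correction, an offset of 50, the deposited processed values, no filter, the mean over probes of 1 gene, a stricter filter (p below 0.01 on all arrays of either genotype), a variance trend with robust estimation, a block on title letters, and each tumour left out in turn. The number of arrays limits the precision.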

Additional observations from a re-analysis of the deposited data

How the results depend on the processing

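No member passed the adjusted threshold of 0.05 in limma under any alternative tried, while over all genes 2 passed with a variance trend and robust estimation and 1 each without MyoD+/+ tumour 2 or tumour 3. The 3 members at an unadjusted p below 0.05 became 5 without background correction, with the deposited processed values and with the variance trend. The shares of all genes in those settings were 5.31%, 5.30% and 4.80%. Leaving out each tumour gave 3 to 4. The 8 of 70 member probes became 14 of 97 with no detection filter, where every member probe was tested. With the variance trend they became 13. They were 8 without MyoD+/+ tumour 1 and 10 without MyoD+/+ tumour 2. Shares of all probes under these alternatives are not given here. The 5 companions became 8 with the block, which raised the share of all genes from 5.26% to 8.39%, and 2 to 5 with a tumour left out. The medians ranged over -0.22 to 0.12 for members, the lowest without MyoD+/- tumour 2, and over -0.02 to 0.10 for companions; the median member SD ranged over 0.27 to 0.30 with a tumour left out. Without background correction and with the deposited values the median SD was 0.25 for members, and over all genes it went from 0.23 to 0.13.

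The numbers of the tumours pair nothing across genotypes in the labels, and the title letters served as the replicate block. Their block leaves MyoD+/+ tumour 1, the only AI tumour, with no weight in the difference. It turned Syp to 0.011 and Sncb to 0.061, and gave 4 members at an unadjusted p below 0.05. Across 247 single-gene values, 229 kept their direction, 2 turned under the block and 16 turned with a tumour left out. With a tumour left out the turned genes ranged over -0.19 to 0.58 for Cbln1, -0.31 to 0.47 for Syt1, -0.29 to 0.10 for Syp, -0.84 to 0.65 for Sncb, -0.60 to 0.21 for Nrxn3, -0.53 to 0.67 for Vsnl1 and -0.27 to 0.51 for Etv1. With a tumour left out, these other named members kept their direction but moved by over 1.5 times. Syn2 ranged over 0.03 to 0.65, Gap43 over -0.56 to -0.18, Dlg4 over -0.64 to -0.09 and Sv2a over -0.55 to -0.21. Nrxn2 ranged over -0.40 to -0.13, Rbfox3 over 0.14 to 0.45, Stmn2 over 0.05 to 0.25 and Ncam1 over 0.34 to 0.73. Other alternatives moved some members as well. With the mean of probes Stmn2 went from 0.15 to 0.41, Tubb2b from 0.13 to 0.27 and Ncam1 from 0.53 to 0.02. Without background correction Sncg went from 0.83 to 0.41 and Dlg4 from -0.37 to -0.18. The cause was not tested. The count of 21 members with P above V in both genotypes was the same without background correction, with an offset of 50, with the processed values and with the stricter filter, and was 24 with the mean of probes. Low signal limits the dim probes. Of the 97 member probes, 22 were detected on 0 arrays. Some of these belong to genes with another, bright probe, such as Tubb2b, Rbfox3 and Dcx. Detection on 0 arrays therefore need not mean that a gene was silent.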

Other observations

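A pair of further granule neuron genes, chosen after their values were seen, were lowest in MyoD+/+ tumour 2. Slc17a7, encoding the vesicular glutamate transporter of granule neurons, was at 10.47, 8.15, 11.09, 9.58 and 10.71 in MyoD+/+ tumours 1 to 3 and MyoD+/- tumours 1 and 2 (SD 1.17). Grm4, encoding a presynaptic glutamate receptor, was at 10.23, 8.78, 10.95, 9.99 and 10.54. The next lowest value of each was in MyoD+/- tumour 1. Some other granule neuron genes shared this and some did not. Of the 6 tested granule identity members, 5 were lowest in MyoD+/+ tumour 2. Of the 10 tested granule neuron companions, Grm4 included, 3 were lowest in MyoD+/+ tumour 2. In 4 of them (40%) the lowest value was in a V tumour, against 42.0% of all genes. Neurod2, Nfia and Nfib were highest in MyoD+/+ tumour 2.

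Smo, also chosen after its values were seen, was at 10.74, 9.93, 10.76, 10.19 and 10.79 in the same order (difference 0.01 ± 0.31). Whether this probe reads the SmoA2 transgene, the mouse's own gene or both was not tested. All 4 tested proliferation markers were higher in MyoD+/- tumours, with a median difference of 0.17. Of the granule neuron precursor markers 3 of 4 tested were higher, with a median of 0.16, and Ptch1 was lower (-0.14 ± 0.24). Of all genes tested, 49.6% were higher. The precursor markers Atoh1, Gli1 and Mycn and the proliferation marker Bub1 were detected on 0 arrays and not tested. None of the tested markers passed the adjusted threshold.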
